A study of Homo sapiens with 23 samples.

Results

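The HOX genes encode homeodomain transcription factors that set positional identity along the body axis. They lie in 4 clusters, in which the order of the genes along the chromosome mirrors the order of the body regions where they act, so that low numbers (HOXA2, HOXB1) mark anterior and high numbers (HOXA13, HOXD13) posterior structures. Genes with the same number in different clusters are paralogues. The clusters are textbook targets of Polycomb repression and of Trithorax activation, and adult colon epithelium and colorectal tumours retain a regional HOX pattern. Acylation of histone lysines, of which acetylation is the best known form, accompanies active promoters and enhancers.

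The members were the protein-coding genes of GENCODE release 44 whose symbol is HOX followed by A, B, C or D and a number. Start windows, 1 kb either side of a transcription start, were analysed for 38 of them among 20007 protein-coding genes, with 10 in HOXA, 10 in HOXB, 9 in HOXC and 9 in HOXD. On hg38 the stretch from the first to the last member was 99.7 kb for HOXA (chromosome 7, 27100354 to 27200091), 200.2 kb for HOXB (chromosome 17, 48528526 to 48728750), 117.2 kb for HOXC (chromosome 12, 53938831 to 54056030) and 98.2 kb for HOXD (chromosome 2, 176092721 to 176190907). In HOXB the stretch up to HOXB9 took 105.0 kb (48528526 to 48633572) and held 9 members, and the rest held HOXB13 as its only member. The HOXB shares and ratios below use the whole 200.2 kb. No 2 member windows overlapped.

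The cells were the human line SW480, grown from a colorectal adenocarcinoma, given 10 mM sodium propionate (NaPr) or 1 mM sodium butyrate (NaBu) for 12 to 16 h, or left untreated. Chromatin immunoprecipitation and sequencing (ChIP-seq) used antibodies against propionylated (pr), butyrylated (bu) and acetylated (ac) lysines. The groups were H3K18pr and H4K12pr in NaPr, H3K18bu and H4K12bu in NaBu, and H3K18ac and H4K12ac in NaPr, in NaBu and in untreated cells, each with 2 replicate libraries, 20 in all. Each condition also had 1 input library of chromatin without immunoprecipitation, 3 in all. All cells came from 1 line, and nothing in the labels says that replicates came from separate cultures, so that p-values may measure technical spread.

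The measurement was the list of peaks, called regions here, of each library. A region records where enrichment passed the caller's threshold, not how much of the mark was present. The immunoprecipitated lists held 8158 to 208823 regions and covered 0.0900% to 3.71% of the genome, and the background that the fold and p-values imply ranged from 3.37 to 38.6 fragments per kb. Run tags in the names of the deposited lists form 3 batches, with the propionyl libraries in one, the NaPr and untreated acetyl libraries in another and all NaBu libraries in the third. A propionyl-acetyl or a NaBu-untreated difference thus cannot be told apart from the run. The immunoprecipitated libraries of the butyryl-acetyl and of the NaPr-untreated contrast each lie inside 1 run. The NaPr input, however, carries the tag of the propionyl libraries, and the untreated input that of the NaPr and untreated acetyl libraries. These inputs covered 0.863% and 0.258% of the genome, and an effect of the input was not tested. Over the HOX spans, H3K18ac in NaPr replicate 1 overlapped the untreated H4K12ac replicates (Jaccard index, shared over combined bp, 0.665 and 0.646) more than its own replicate (0.390). With all regions, the tested cluster differences and the member counts that use this library are therefore also given without it. Start windows of the epithelial keratin genes KRT18, KRT8 and KRT19 held a region in 20, 19 and 19 of 20 libraries and the intestinal factor CDX2 in 10. KRT20 had 1, and the liver genes ALB and APOA2 and the leukocyte gene PTPRC had 0. Markers did not split cleanly by cell type, as leukocyte CD14 had 14, fibroblast COL1A1 11 and neuronal SNAP25 7. The median was 12 libraries over 10 colon epithelium markers, 2.5 over 4 leukocyte and 2 over 3 endothelium markers. It was 5 over 3 fibroblast, 3.5 over 2 neuron and 0 over 2 liver markers.

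Promoter sequence is shown for 6 members at the ends of the range of coverage, 250 bases upstream of the start from RefSeq (GRCh38.p14), with CG dinucleotides in capitals, since unmethylated CG-rich promoters commonly carry active histone marks. HOXA9 (chromosome 7, 27165538 to 27165787, minus strand) and HOXD1 (chromosome 2, 176188418 to 176188667, plus strand) held regions in the most libraries of their clusters. HOXA2 (chromosome 7, 27102684 to 27102933, minus strand), HOXB1 (chromosome 17, 48531012 to 48531261, minus strand), HOXD10 (chromosome 2, 176116528 to 176116777, plus strand) and HOXD12 (chromosome 2, 176099545 to 176099794, plus strand) held regions in the fewest.
HOXA9: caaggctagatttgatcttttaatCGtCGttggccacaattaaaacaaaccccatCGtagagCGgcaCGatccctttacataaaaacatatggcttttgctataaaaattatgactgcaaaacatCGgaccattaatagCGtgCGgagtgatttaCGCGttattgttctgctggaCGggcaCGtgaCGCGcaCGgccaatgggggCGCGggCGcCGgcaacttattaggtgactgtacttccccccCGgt
HOXA2: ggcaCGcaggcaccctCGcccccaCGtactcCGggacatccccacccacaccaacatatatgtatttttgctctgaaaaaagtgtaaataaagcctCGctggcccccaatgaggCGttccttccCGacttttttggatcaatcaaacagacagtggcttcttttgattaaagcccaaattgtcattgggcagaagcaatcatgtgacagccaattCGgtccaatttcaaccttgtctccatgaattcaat
HOXB1: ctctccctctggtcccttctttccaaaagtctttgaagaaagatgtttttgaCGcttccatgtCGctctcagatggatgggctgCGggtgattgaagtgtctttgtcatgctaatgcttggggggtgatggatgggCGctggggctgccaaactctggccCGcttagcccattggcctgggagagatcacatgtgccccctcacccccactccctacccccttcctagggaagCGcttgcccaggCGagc
HOXD1: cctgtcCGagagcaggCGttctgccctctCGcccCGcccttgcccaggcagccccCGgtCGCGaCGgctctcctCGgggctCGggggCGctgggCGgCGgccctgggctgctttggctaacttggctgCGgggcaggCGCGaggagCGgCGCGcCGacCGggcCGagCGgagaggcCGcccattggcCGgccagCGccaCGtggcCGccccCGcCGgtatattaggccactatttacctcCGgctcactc
HOXD10: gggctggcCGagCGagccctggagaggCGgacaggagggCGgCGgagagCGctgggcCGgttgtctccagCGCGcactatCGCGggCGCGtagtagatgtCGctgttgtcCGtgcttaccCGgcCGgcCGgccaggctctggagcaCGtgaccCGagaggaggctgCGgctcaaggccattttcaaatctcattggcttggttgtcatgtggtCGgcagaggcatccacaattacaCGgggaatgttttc
HOXD12: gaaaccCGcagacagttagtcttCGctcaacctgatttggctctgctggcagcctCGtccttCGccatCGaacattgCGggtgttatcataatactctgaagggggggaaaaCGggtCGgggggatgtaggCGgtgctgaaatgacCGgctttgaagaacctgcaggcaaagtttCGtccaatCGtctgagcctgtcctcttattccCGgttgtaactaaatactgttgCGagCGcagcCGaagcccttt
Of the 38 members, 20 matched an entry in the promoter table, and HOXB4, HOXC10 and HOXC12 did not. The printed promoters held 20 CG dinucleotides in HOXA9, 31 in HOXD1, 8 in HOXA2, 7 in HOXB1, 23 in HOXD10 and 16 in HOXD12, against a median of 17 over 15345 promoters. HOXD10 thus lay above and HOXD12 just below that median, and neither had a region in any library. Over the 17 members whose RefSeq start was within 1 kb of the start used here, the CG count and the number of libraries with a region had a Pearson r of 0.30 and a Spearman rho of 0.31, a description of points that share the same 20 libraries. The letters TATAAA, the core of a TATA box, occurred on either strand in 4 of 20 member promoters and in 9.23% of all promoters. The letters TTTATG, bound by caudal-type factors such as CDX2, occurred in 3 of 20 member promoters, against 7.23% of all, namely in HOXA3, HOXA9 and HOXD8.

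The start windows with the most regions belonged to the middle of the HOXA and HOXB clusters. HOXA9, a trunk factor known from leukaemia, had a region in 19 of 20 libraries, and HOXB4, a factor known from blood stem cells, in 18. HOXC10, a posterior factor of the lumbar region, had one in 14 and HOXD1, at the anterior end of HOXD, in 12. At the other end stood HOXA2, which patterns the hindbrain and branchial arches, with 4, HOXB1, another hindbrain gene, with 5, HOXC12 with 5, and the posterior limb genes HOXD10 and HOXD12 with 0. The median over members was 12 libraries, and over all protein-coding genes 10. By cluster the medians were 13.5 for HOXA, 15.5 for HOXB, 10 for HOXC and 5 for HOXD.

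**Figure D1:**
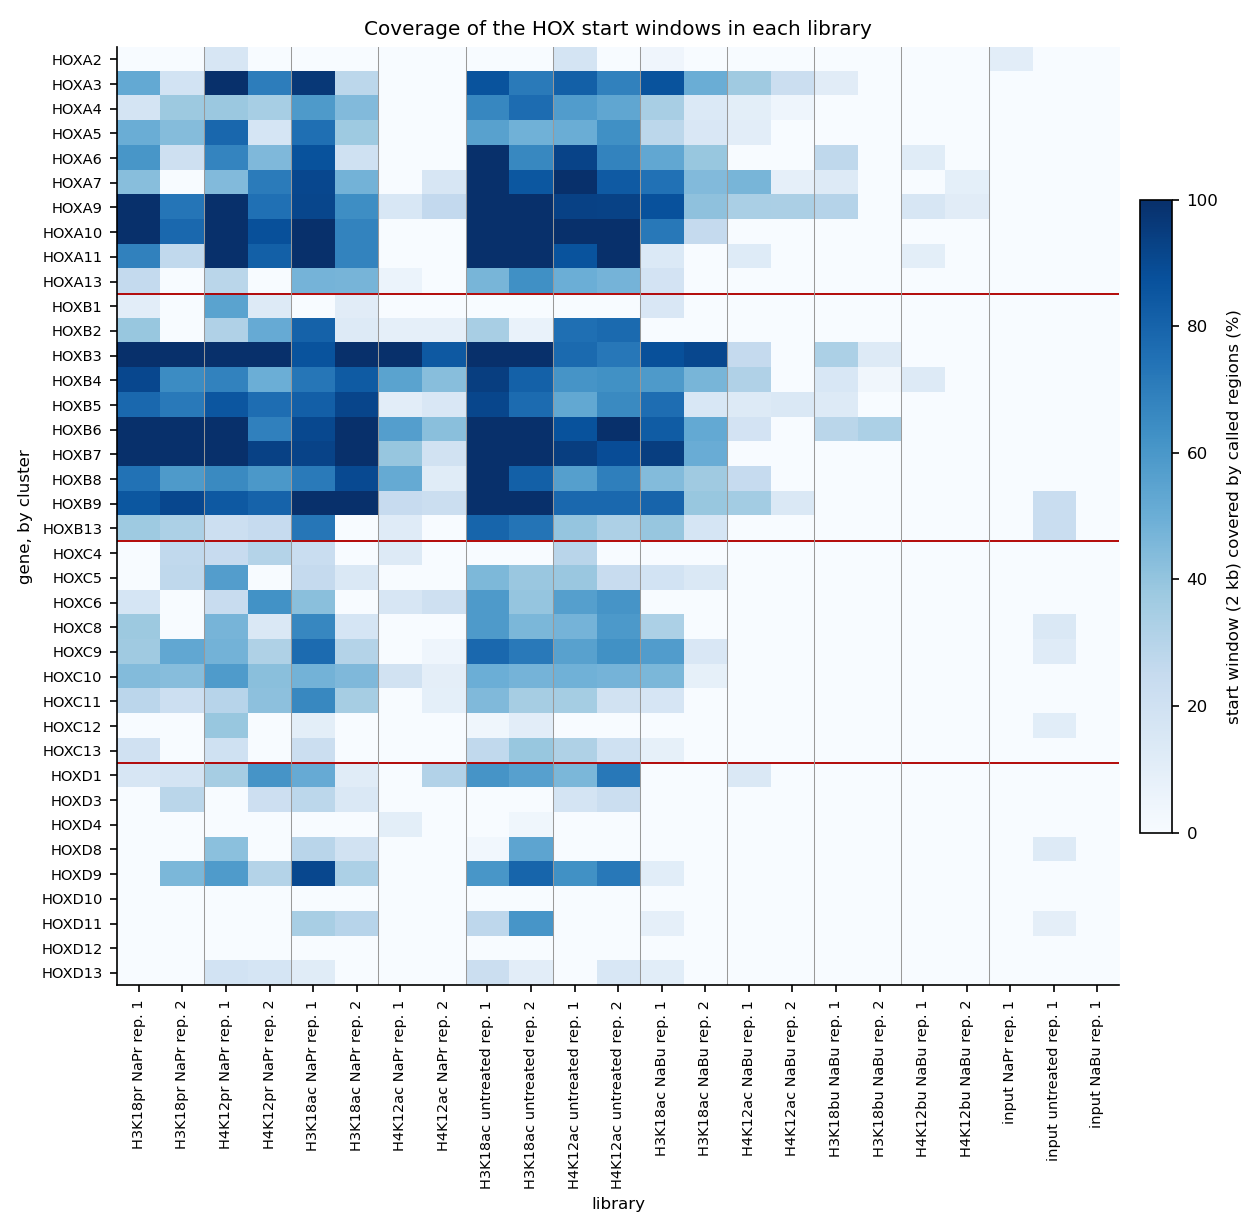
Percent of the 2 kb start window of each of the 38 HOX members (rows, anterior to posterior within a cluster, clusters divided by red lines) that lay in called regions in each of the 23 libraries (columns). The HOXA rows are nearly empty in H4K12ac NaPr while HOXB3 to HOXB9 are not, and HOXD10 and HOXD12 are empty throughout.

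HOXA9 shows how one start window varied. H3K18pr covered 100% and 73.3% of it, H4K12pr 100% and 75.0%, and H3K18ac in NaPr 91.3% and 63.8%, but H4K12ac in NaPr 15.6% and 26.0%. Untreated H3K18ac covered 100% and 100% and untreated H4K12ac 93.1% and 92.9%. With NaBu, H3K18ac covered 87.3% and 41.2%, H4K12ac 33.9% and 33.3%, H3K18bu 30.2% and 0%, and H4K12bu 16.0% and 11.2%. Both H4K12ac NaPr libraries therefore lay below all 4 propionyl and all 4 untreated libraries, and H4K12bu had a region at this start in both replicates. These H4K12bu regions stood at percentiles 38.0 and 30.6 of the fold in their lists. With only regions of q under 0.05, H4K12bu had 0% of HOXA in both replicates. No input library had a region there.

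HOXB4 differed from HOXA9 in keeping more of its window in H4K12ac in NaPr, with 55.0% and 42.7% against 61.1% and 62.5% in untreated cells. H3K18pr covered 90.8% and 64.8% of it and H4K12pr 68.0% and 49.7%. With NaBu, H3K18ac covered 58.7% and 46.7%, H4K12ac 31.8% and 0%, H3K18bu 15.4% and 3.25%, and H4K12bu 13.1% and 0%. Both libraries without a region at HOXB4 were thus H4K12 libraries in NaBu. The remaining values were 72.9% and 83.6% in H3K18ac in NaPr and 94.2% and 81.0% in untreated H3K18ac.

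The bases covered most widely in HOXA formed a stretch of 31 bases on chromosome 7, 27165989 to 27166019 on hg38, 468 bp upstream of the HOXA9 start used here. It lies within the annotated HOXA9 gene, in an intron of longer transcripts, overlaps no annotated exon, and was inside a region in 19 of 20 libraries. It is printed on the plus strand because nearly all lists shared it.
HOXA9 upstream: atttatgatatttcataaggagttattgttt
In HOXB the most widely covered stretch had 35 bases (chromosome 17, 48581179 to 48581213), also in 19 libraries, 2846 bp upstream of HOXB4 and inside the HOXB3 gene. In HOXC it had 65 bases (chromosome 12, 53995201 to 53995265) in 17 libraries, inside HOXC9. In HOXD no base was inside a region in more than 10 libraries, and 65.2% of the HOXD span lay in no region of any library, against 28.4% for HOXA, 31.5% for HOXB and 32.6% for HOXC.

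The microRNA genes inside the clusters differed as widely as the HOX genes. Mature sequences are printed because identical or nearly identical mature products come from copies with very different coverage. The seed, bases 2 to 8, which pairs with target messages, is in capitals.
miR-10a-5p: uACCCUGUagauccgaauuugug
miR-196a-5p: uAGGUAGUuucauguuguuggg
miR-196b-5p: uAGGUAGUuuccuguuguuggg
Windows around the annotated hairpin start held a region in 19 of 20 libraries at MIR10A (HOXB, chromosome 17, 48579838 to 48579947) and in 18 at MIR196B (HOXA, chromosome 7, 27169480 to 27169563). The figure was 5 at MIR196A1 (HOXB, chromosome 17, 48632490 to 48632559), 3 at MIR196A2 (HOXC, chromosome 12, 53991738 to 53991847) and 1 at MIR10B in HOXD. The products of MIR196A1 and MIR196A2 are identical, and miR-196b differs from them by A12C, counted from the 5′ end with the miR-196a base first, outside the shared seed. The antisense gene HOXA10-AS, near MIR196B, also had a region in 18 libraries, HOTAIR, the antisense RNA of HOXC, in 11, and HOTTIP, at the posterior end of HOXA, in 7. A hairpin start is not the start of the primary transcript, and ChIP reads carry no strand, so that overlapping genes could not be told apart.

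Clusters were then compared by the percent of their span inside regions. HOXA was covered more than HOXD in 20 of 20 libraries, HOXB more than HOXD in 20, HOXB more than HOXC in 19, HOXA more than HOXC in 18 and HOXC more than HOXD in 18. HOXA and HOXB did not keep one order, with HOXA higher in 13 libraries and HOXB in 7. This order, and the ratios of HOXA to HOXB below, depend on the HOXB span, which includes the long stretch between HOXB9 and HOXB13. The median covered share was 20.3% for HOXA (range 1.74% to 50.6%), 24.3% for HOXB (0.0944% to 48.9%), 8.90% for HOXC (0.156% to 37.2%) and 4.17% for HOXD (0% to 10.6%). In the input libraries the share was 0.145% to 0.774% for HOXA and 0.301% to 0.553% for HOXB. It was 0.134% to 0.997% for HOXC and 0.361% to 1.71% for HOXD.

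**Figure D2:**
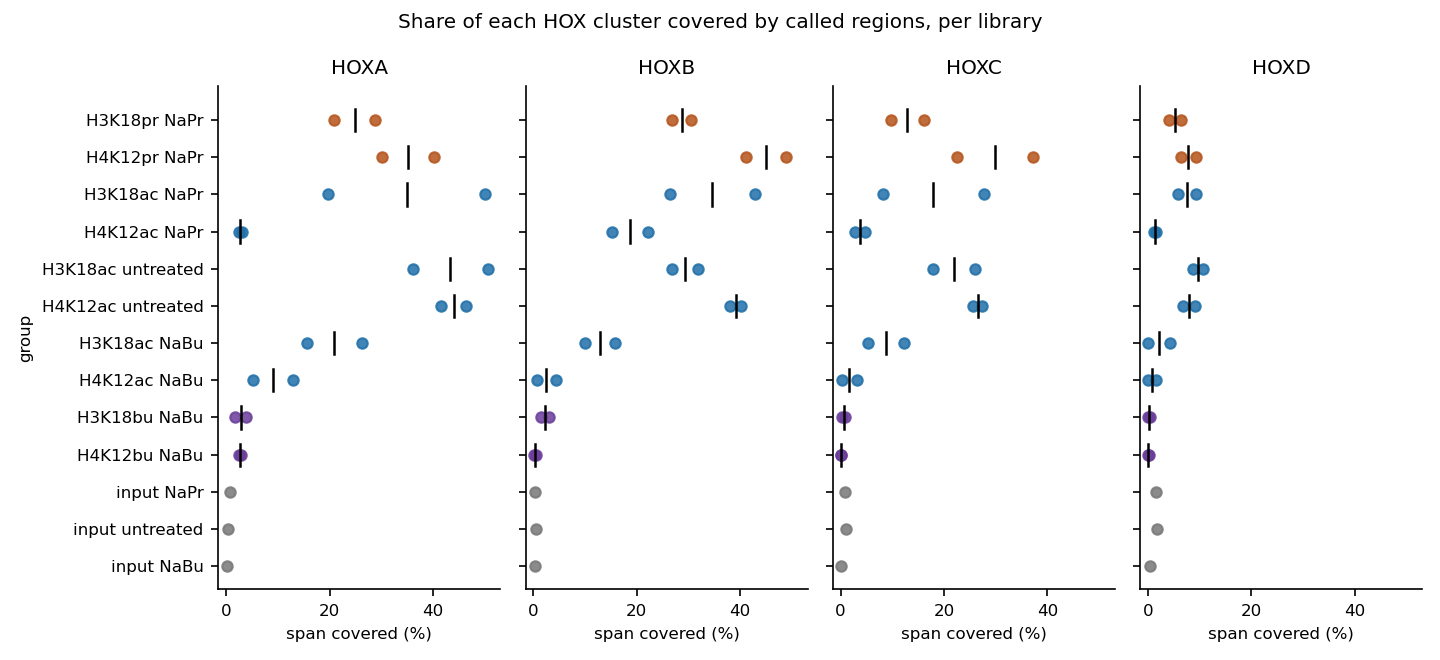
Percent of each HOX cluster span inside called regions (x axis) by group (y axis). Each point is 1 library and each black bar a group mean. In H4K12ac NaPr the HOXA points sit at 2.47% and 3.04%, against 15.2% and 22.2% for HOXB.

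HOXA stood out from its surroundings most regularly. Its span was covered more than both flanks, stretches of its own length on either side, in 20 of 20 libraries, with medians of 20.3% in the span and 3.62% and 3.20% in the flanks. HOXB exceeded both flanks in 15 libraries, HOXC in 14 and HOXD in 14. Relative to the covered share of the genome the median ratio was 16.2 for HOXA, 12.5 for HOXB, 5.50 for HOXC and 2.21 for HOXD. The HOXA ratio was lowest in the H4K12ac NaPr libraries, at 2.09 and 2.00, and highest in H4K12ac NaBu replicate 2, at 35.8. In H4K12bu, the shortest lists, it was 25.3 and 27.7.

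**Figure D3:**
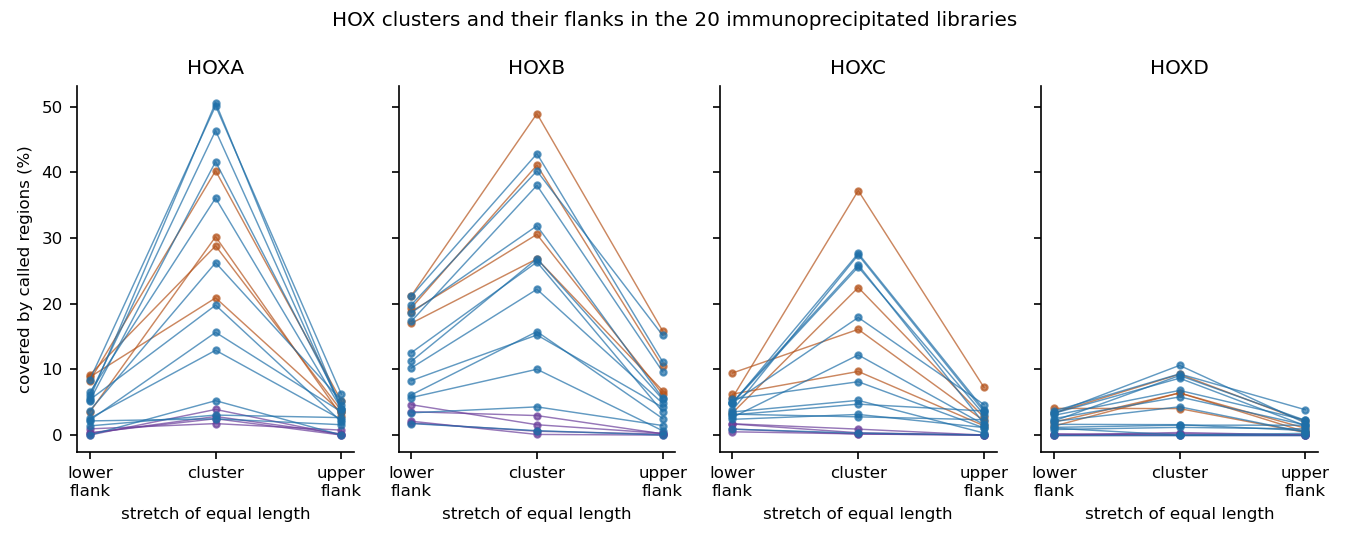
Percent covered (y axis) in each cluster span and in the stretch of equal length on its lower and upper coordinate side (x axis), with 1 line per immunoprecipitated library (orange propionyl, blue acetyl, purple butyryl). All 20 HOXA lines peak at the cluster, and HOXB has a covered lower flank, with a median of 10.7%.

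The first comparison set acetylation in NaPr beside acetylation in untreated cells. By the tags the immunoprecipitated libraries lay within 1 run, but the NaPr input did not. In H4K12ac, HOXA was covered to 3.04% and 2.47% in NaPr against 46.3% and 41.6% in untreated cells, a mean of 2.76% ± 0.408 against 43.98% ± 3.34 (SD, n = 2). HOXC went with it, at 3.74% ± 1.37 against 26.5% ± 1.31, and HOXD at 1.34% ± 0.238 against 7.93% ± 1.60. The HOXD shares in NaPr, 1.51% and 1.17%, lay below the 1.59% of the NaPr input. HOXB kept 18.7% ± 4.92 against 39.1% ± 1.55. The NaPr and untreated H4K12ac libraries thus did not overlap in any of the 4 clusters, with a 16.0-fold gap in mean coverage at HOXA and 2.09-fold at HOXB. Relative to genome coverage HOXB was at 13.8 ± 2.08 in NaPr and 14.9 ± 0.614 in untreated cells, and HOXA at 2.04 ± 0.0688 and 16.7 ± 0.0828.

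At H3K18ac the same treatment gave overlapping libraries. HOXA was covered to 50.1% and 19.8% in NaPr and to 50.6% and 36.1% in untreated cells, and HOXB to 42.8% and 26.3% against 31.9% and 26.8%. Without NaPr replicate 1, the library that stands apart, the NaPr value is 19.8% at HOXA and 26.3% at HOXB, both below the 2 untreated libraries. Over both histone sites the difference NaPr minus untreated was -24.8 percentage points at HOXA (two-sided exact permutation test, p = 0.111, adjusted p = 0.296), -7.58 at HOXB (p = 0.278, adjusted 0.444), -13.4 at HOXC (p = 0.167, adjusted 0.381) and -4.33 at HOXD (p = 0.111, adjusted 0.296). Without H3K18ac NaPr replicate 1 these differences were -32.4, -11.7, -18.3 and -5.20, and without its replicate 2 they were -17.2, -3.45, -8.51 and -3.45. With 36 arrangements the smallest p this design allows is 0.0556, so that no cluster could pass 0.05, and p-values were adjusted over 16 pairs of cluster and comparison. A separate test of H4K12ac alone, 2 libraries against 2, cannot go below 0.333.

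Member by member, the start windows of 11 of 38 HOX genes (28.9%) had a region in both untreated H4K12ac libraries and in neither NaPr library, against 24.5% of all protein-coding genes, and 0 the other way (0.275%). The total was thus near the background, while its spread over the clusters was uneven, with 6 of 10 HOXA, 0 of 10 HOXB, 3 of 9 HOXC and 2 of 9 HOXD genes. HOXA10, a factor of the posterior trunk and uterus, was covered to 100% and 100% in untreated cells and to 0% and 0% in NaPr. HOXA11, its neighbour, had 86.4% and 100% against 0% and 0%, and HOXA4 57.6% and 53.3% against 0% and 0%. HOXB9, by contrast, kept 24.3% and 22.0% against 78.5% and 78.2%. At H3K18ac 1 member, HOXD3, went the other way, with 27.8% and 14.7% in NaPr and 0% and 0% in untreated cells (0.39% of all genes), and 0 members were found only in untreated H3K18ac (1.2%). Without H3K18ac NaPr replicate 1 these counts were 2 and 4.

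**Figure D4:**
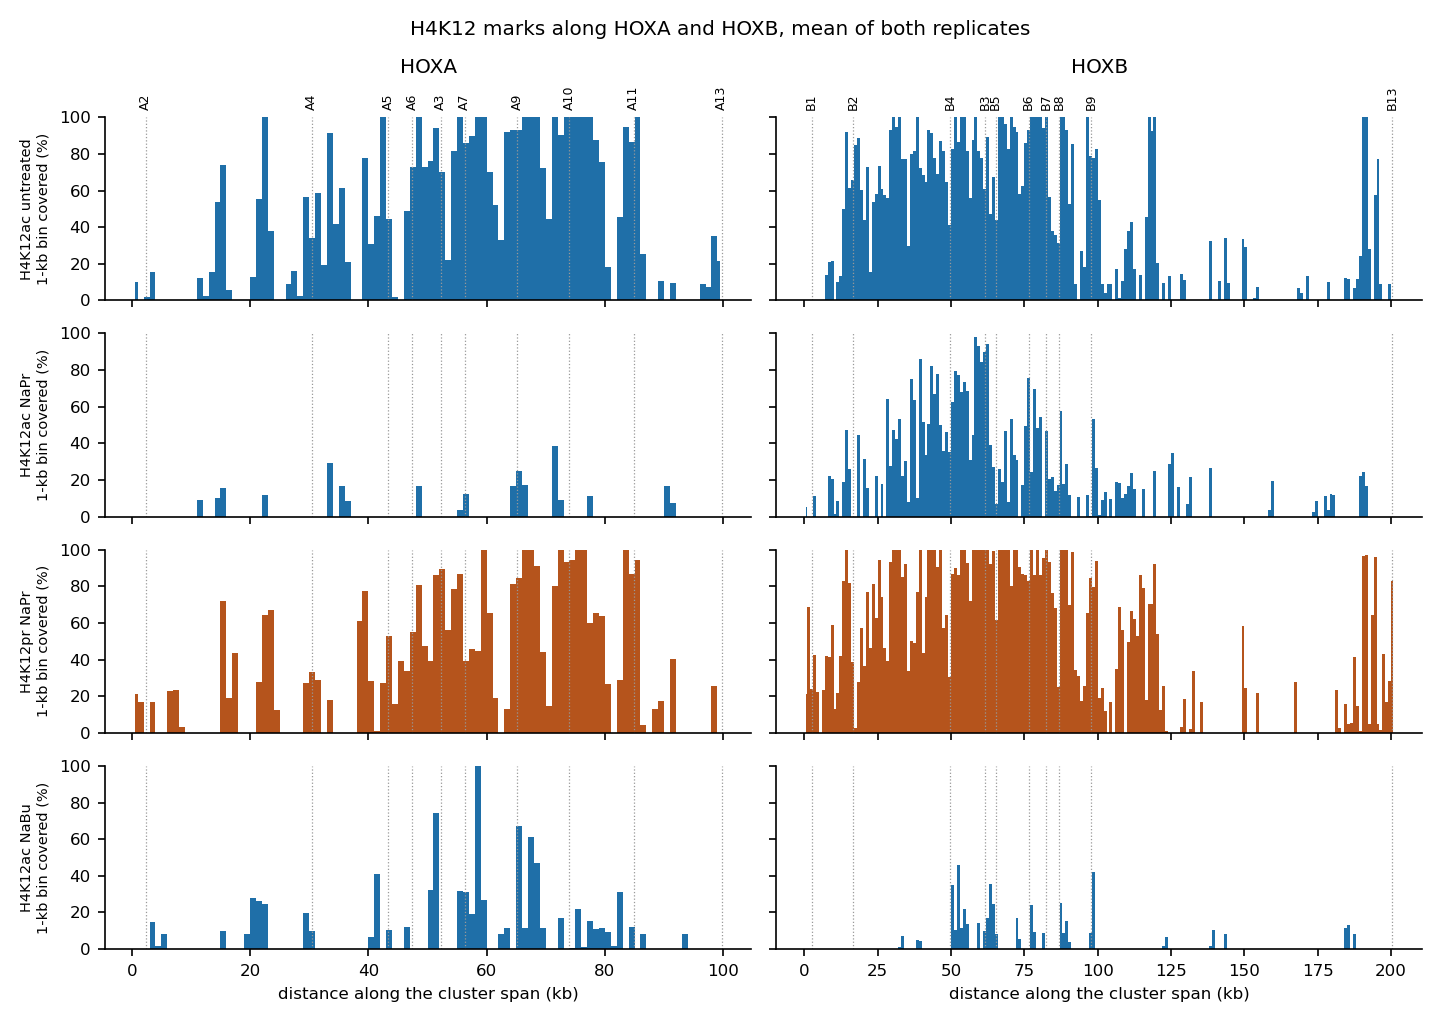
Percent of each 1 kb bin inside regions (y axis, mean of both replicates) along HOXA (left) and HOXB (right) for 4 H4K12 groups, with dotted lines at the start of each member. In H4K12ac NaPr the block from HOXA5 to HOXA11 is nearly empty and the block around HOXB4 to HOXB8 is not, whereas H4K12pr NaPr fills both.

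The HOXA share over the HOXB share was also compared inside each library. This ratio was added after the values were seen and is given without a test. The ratio was 0.137 and 0.162 in H4K12ac in NaPr and 1.15 and 1.10 in untreated cells. In H3K18ac it was 1.17 and 0.751 in NaPr and 1.59 and 1.34 in untreated cells, so that at both sites each NaPr library had less of HOXA relative to HOXB than each untreated library. With the same number of strongest regions taken from every list, 8158, HOXA was covered to 0% and 0% in H4K12ac in NaPr and to 24.9% and 21.2% in untreated cells, while HOXB had 8.51% and 5.36% against 5.77% and 8.80%. At equal list length the HOXA groups thus still did not overlap, whereas the HOXB groups did. Equal numbers did not mean equal coverage. These regions covered 0.182% and 0.149% of the genome in H4K12ac in NaPr, and 0.367% and 0.344% in untreated cells. At H3K18ac that setting split the NaPr replicates, at 26.8% and 0% of HOXA. The ratio at H3K18ac was then 2.71 and 0 in NaPr against 1.38 and 1.06 in untreated cells, so that the order seen with all regions did not hold there, and at H4K12ac it was 0 and 0 against 4.32 and 2.41.

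**Figure D5:**
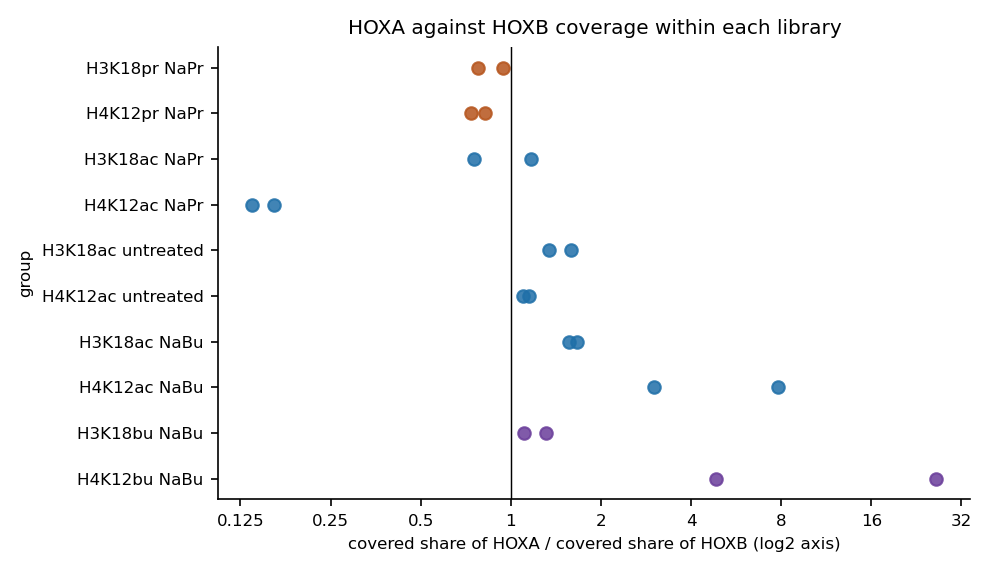
Covered share of HOXA over covered share of HOXB within each of the 20 libraries (x axis, log2 scale) by group (y axis), with 1 point per library. H4K12ac NaPr lies at 0.137 and 0.162, below every other library, and the H4K12 libraries in NaBu lie highest, at 3.01 to 26.4. The 26.4 rests on a HOXB share of 0.0944% in H4K12bu replicate 2, below the 0.309% of the NaBu input. With q under 0.05 H4K12bu had 0% of both clusters and no ratio.

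The second comparison set propionyl marks beside acetyl marks of the same site in NaPr, which coincides with the run. H4K12pr covered HOXA to 40.2% and 30.2%, where H4K12ac had 3.04% and 2.47%, a mean of 35.2% ± 7.10 against 2.76% ± 0.408. At HOXB the means were 45.0% ± 5.54 and 18.7% ± 4.92, at HOXC 29.8% ± 10.4 and 3.74% ± 1.37, and at HOXD 7.83% ± 2.02 and 1.34% ± 0.238. The H4K12pr and H4K12ac libraries did not overlap in any of the 4 clusters, but at HOXD both H4K12ac libraries lay below the 1.59% of the NaPr input. The start windows of 11 members (28.9%) had a region in both H4K12pr and neither H4K12ac library, against 18.4% of all genes, 7 of them in HOXA, 1 in HOXB, 1 in HOXC and 2 in HOXD, and 0 had the reverse (0.585%). HOXA10, with 100% and 87.8%, HOXA11, with 100% and 81.6%, and HOXA4, with 38.0% and 34.5%, were the members with the strongest regions among them.

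At H3K18 the propionyl and acetyl libraries overlapped in every cluster, which rests on H3K18ac replicate 1 at HOXA, HOXB and HOXC. HOXA was covered to 28.8% and 20.9% in H3K18pr and to 50.1% and 19.8% in H3K18ac, and HOXB to 30.5% and 26.8% against 42.8% and 26.3%. Without replicate 1 the H3K18ac value lay below both H3K18pr libraries at HOXA, HOXB and HOXC. No member had a region in both H3K18pr and neither H3K18ac library (0.575% of all genes), and 3 had the reverse (4.62%), counts that were 1 and 3 without H3K18ac replicate 1. The 3 were HOXD11, with 34.1% and 29.6%, HOXC12, with 9.90% and 0.150%, and HOXD8. HOXD11, HOXC12 and HOXD8 also had a region in the untreated input.

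Butyryl against acetyl in NaBu lay within 1 run. HOXA was covered to 3.90% and 1.74% in H3K18bu against 26.2% and 15.6% in H3K18ac, and to 2.83% and 2.49% in H4K12bu against 12.9% and 5.23% in H4K12ac. With all regions, butyryl libraries lay below their acetyl counterparts at HOXA, HOXB and HOXC for both sites, and overlapped at HOXD, where at least 1 acetyl library per site was at 0%. This order did not hold on other scales. Relative to genome coverage HOXA was at 26.5 ± 1.66 in H4K12bu and 26.1 ± 13.8 in H4K12ac, and with equal numbers of regions HOXB was covered to 0.871% and 0.624% in H3K18bu against 0% and 0.271% in H3K18ac. HOXB was covered to 0.583% and 0.0944% in H4K12bu, close to the 0.309% of the NaBu input, while the HOXA share of that input was 0.145%. With only regions of q under 0.05, H4K12bu had 0% of both clusters in both replicates.

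The start windows of 10 members (26.3%) had a region in both H3K18ac NaBu and neither H3K18bu library, against 22.7% of all genes, and 0 had the reverse (0.025%). The 3 with the strongest regions were HOXB9, at 80.1% and 38.8%, HOXB7, at 94.2% and 50.8%, and HOXA10, at 71.9% and 25.0%. For H4K12 the count was 4 (10.5%, all genes 4.75%), namely HOXA3, HOXA4, HOXB5 and HOXB9, with 0 in reverse (0.07%). The butyryl marks were found at HOXA9 in 3 of 4 libraries, at HOXB4 in 3, and at HOXA6, HOXA7, HOXB3 and HOXB6 in 2 each. No HOXC or HOXD start had a butyryl region in any library. The caller background of these lists was 4.26 to 4.29 fragments per kb, which is not the read depth.

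Over all 4 strata of site and treatment, acyl minus acetyl was -0.543 percentage points at HOXA (exact permutation p = 0.952, adjusted 0.997), 1.91 at HOXB (p = 0.671, adjusted 0.895), 2.86 at HOXC (p = 0.559, adjusted 0.813) and 0.380 at HOXD (p = 0.781, adjusted 0.961). Without H3K18ac NaPr replicate 1 these differences were 3.25, 3.97, 5.30 and 0.819. These means near 0 sum strata of opposite direction, as H4K12pr lay above and both butyryl marks below their acetyl counterparts. Per gene, 0 of 14865 tested genes (0%) passed an adjusted p of 0.05 in either direction by the exact permutation test over strata, and 343 (2.31%) had an unadjusted p of at most 0.05. None of the 35 members tested was among these. With a smallest p of 0.00154, a call after adjustment over all genes needs a large set of genes at that smallest p at once, so that the design limits this count.

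Butyrate against untreated cells, which coincides with the run, gave the lowest p this design allows in all 4 clusters. NaBu minus untreated was -28.7 percentage points at HOXA, -26.5 at HOXB, -19.0 at HOXC and -7.31 at HOXD, each with an exact permutation p of 0.0556 and an adjusted p of 0.222. The groups did not overlap at either histone site. Relative to the covered share of the genome, however, the HOXA difference turned to 3.33. At H4K12ac HOXB was covered to 4.29% and 0.672% in NaBu against 40.2% and 38.0%, a 15.8-fold gap in means, and HOXA to 12.9% and 5.23% against 46.3% and 41.6%, a 4.85-fold gap. Here HOXB was the emptier cluster, the opposite of NaPr, with ratios of HOXA to HOXB of 3.01 and 7.79. With equal numbers of regions, HOXB was the emptier cluster in untreated H4K12ac as well. The ratios were then 4.32 and 2.41 in untreated cells and 5.92 and 8.74 in NaBu.

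At H4K12ac 15 members (39.5%) had a region in both untreated and neither NaBu library, against 28.1% of all genes, and 0 had the reverse (0.05%). Of these 7 of 9 were in HOXC, 3 in HOXA, 3 in HOXB and 2 in HOXD, and the strongest were HOXC10, HOXA10 and HOXA6. HOXC10 was covered to 48.7% and 47.3% in untreated cells and 0% and 0% in NaBu, and HOXA10 to 100% and 100% against 0% and 0%. At H3K18ac the count was 5 (13.2%, all genes 6.89%), HOXD1, HOXC6, HOXB2, HOXC12 and HOXD8, with 0 in reverse (0.445%). HOXD1 had 61.2% and 56.0% in untreated H3K18ac and 0% and 0% in NaBu.

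The last comparison set H3K18 against H4K12 within each mark and treatment. Over 5 strata no cluster passed, with differences of 6.64 percentage points at HOXA (exact permutation p = 0.222, adjusted 0.395), 0.428 at HOXB (p = 0.909, adjusted 0.997), 0.0164 at HOXC (p = 0.997, adjusted 0.997) and 1.35 at HOXD (p = 0.204, adjusted 0.395). Without H3K18ac NaPr replicate 1 they were 3.61, -1.22, -1.94 and 1.00. Per gene, 2207 of 15509 tested genes (14.2%) had a start window covered more at H3K18 at an adjusted p of at most 0.05, and 0 (0%) more at H4K12. Of 36 members tested, 6 (16.7%) were higher at H3K18, a share near that background.

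Of these 6, 5 were trunk genes of HOXB and the sixth was HOXC9. The mean difference was 31.3 percentage points at HOXB6 (exact permutation test, adjusted p = 0.0326), 30.2 at HOXB7 (0.0378), 27.7 at HOXB9 (0.0258), 22.7 at HOXB4 (0.0258), 21.8 at HOXB8 (0.0378) and 21.8 at HOXC9 (0.0378). HOXB6, for example, was covered to 82.9% and 52.1% in H3K18ac and 18.3% and 0% in H4K12ac in NaBu, and to 28.8% and 33.0% in H3K18bu and 0% and 0% in H4K12bu. In the propionyl libraries its windows were nearly full at both sites, with 100% and 100% against 100% and 69.1%. HOXB9 and HOXC9 had a region in the untreated input. With equal numbers of regions 0 members were called, without regions over input peaks 1, with 2 kb windows 2, and with the replicate number as a block 0. Leaving out 1 library gave 0 members without H4K12ac NaBu replicate 2, 1 without H3K18ac NaBu replicate 1, 2 without H4K12ac NaBu replicate 1, 3 without H4K12ac NaPr replicate 2, and 10 without H4K12pr replicate 1 or H3K18ac NaBu replicate 2, while without H3K18ac NaPr replicate 1 the count was 6.

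Inputs gave the background at HOX starts. The untreated input had a region at 7 of 38 members (18.4%), against 18.8% of all protein-coding genes, the NaPr input at 1 and the NaBu input at 0. The 7 were HOXB9, HOXB13, HOXC8, HOXC9, HOXC12, HOXD8 and HOXD11, none in HOXA.

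Other genes of the same pathway were counted from lists. Among the TALE cofactors, homeodomain partners of HOX proteins, MEIS1 had a region in 17 libraries and PKNOX1 in 16. Among the caudal factors, which act upstream of HOX genes, CDX2 had 10, CDX1 3 and CDX4 0. The Polycomb repressive complex 2 genes EED, EZH2 and SUZ12 had 19, 15 and 11, and the 4 Trithorax-side genes 11 to 14. Of the 9 neighbouring genes listed, EVX1, next to HOXA13, had 14 and EVX2, next to HOXD13, 3. Among the 9, PRAC1 and PRAC2 lie inside the HOXB span, between HOXB9 and HOXB13. Against 14.2% of all genes, those higher at H3K18 were 2 of 8 tested TALE cofactors, 2 of 9 neighbouring genes, 1 of 4 Trithorax-side, 0 of 3 Polycomb and 0 of 2 caudal genes, and 0 were lower. No gene of these lists was called in acyl minus acetyl.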

How the data were processed

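Per the labels, 20 immunoprecipitated libraries (10 groups of 2) and 3 inputs of SW480 cells were sequenced. The submitters' processing notes name bcl2fastq 2.17.1, cutadapt 1.8.1, Bowtie2 2.3.1, MACS2 2.1.0 and hg38. The authors called peaks per library at p 0.01 and removed blacklisted regions. Each deposited peak carries a fold enrichment (ratio of pileup to local background) and, from the authors' caller, −log10 p-values and −log10 q-values, used here to rank and filter only. The control of the input lists is not given in the sources used here.

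Coverage is the percent of base pairs inside regions, over each cluster span and over 1 kb either side of the MANE Select start in GENCODE 44. A start counted as marked with at least 1 bp covered. Fold and p were solved for the background under the caller's Poisson model, and the most frequent value was divided by the shortest region. It is the scaled background of the caller, not the read depth, and covers counting only.

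Comparisons used two-sided exact permutation tests within strata (1296, 36 or 7776 arrangements; smallest p 0.00154, 0.0556 and 2.57e-04), with Benjamini-Hochberg adjustment over 16 cluster tests or over all genes tested (a region in at least 2 libraries). Group pairs were counted without a test. Python 3.11.15, NumPy 2.4.6, SciPy 1.17.1 and pandas 2.3.3 were used, and the code was tested on simulated data. Named genes were those with the most and fewest marked libraries in each cluster, up to 3 per group pair with the strongest regions, and all called members. Members and lists were chosen with earlier results of these data known. One further gene that the rule matches is not reported here.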

Additional observations from a re-analysis of the deposited data

Results flagged for a closer look

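At 3 clusters the acyl and acetyl marks differed in opposite directions in strata whose libraries did not overlap. H4K12pr lay above H4K12ac in NaPr, while H3K18bu and H4K12bu lay below their acetyl counterparts in NaBu with all regions. Relative to genome coverage HOXA was at 26.5 ± 1.66 in H4K12bu and 26.1 ± 13.8 in H4K12ac NaBu (SD, n = 2), and with equal numbers of regions HOXB was covered more in H3K18bu, to 0.871% and 0.624%, than in H3K18ac NaBu, at 0% and 0.271%. The gap between the highest and the lowest stratum difference was 50.6 percentage points at HOXA (32.5 against -18.1), 36.9 at HOXB (26.3 against -10.6) and 34.2 at HOXC (26.1 against -8.11). The difference between strata was not tested, and the NaPr stratum coincides with the run.

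The histone sites differed in the same manner. H3K18 lay above H4K12 in the NaPr acetyl libraries and below it in the propionyl libraries, with gaps of 42.6 percentage points at HOXA (32.2 against -10.4), 32.2 at HOXB (15.9 against -16.3) and 31.1 at HOXC (14.1 against -16.9). This difference was not tested either. The NaPr acetyl stratum includes H3K18ac NaPr replicate 1, without which the gaps were 27.4 at HOXA (17.0 against -10.4), 23.9 at HOXB (7.62 against -16.3) and 21.3 at HOXC (4.38 against -16.9).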

How the results depend on the processing

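No cluster test passed an adjusted p of 0.05 in the report or under any alternative, so only directions are given, in percentage points unless a ratio to genome coverage is named. For acyl minus acetyl, the NaPr strata alone gave 11.2 at HOXA, from -10.1 at H3K18 and 32.5 at H4K12. Without H3K18ac NaPr replicate 1 the H3K18 direction turned, with a mean of 24.8% in H3K18pr against 19.8% in H3K18ac. The NaBu strata alone, within 1 run, gave -6.38 at HOXB, -4.83 at HOXC and -1.32 at HOXD. Relative to genome coverage acyl minus acetyl was -1.9998 at HOXB, -0.366 at HOXC and -0.132 at HOXD, and with equal numbers of regions -1.01 at HOXC. Relative to genome coverage NaPr minus untreated was 0.915 at HOXB, NaBu minus untreated 3.33 at HOXA, and H3K18 minus H4K12 -2.14 at HOXA. With equal numbers NaPr minus untreated was 0.0507 and H3K18 minus H4K12 -0.0418 at HOXD, and without regions over input peaks H3K18 minus H4K12 was -1.07 at HOXC. Leaving out 1 library moved acyl minus acetyl between -4.34 and 3.25 at HOXA, -0.155 and 3.97 at HOXB, 0.414 and 5.30 at HOXC, and -0.158 and 0.919 at HOXD, and H3K18 minus H4K12 between 3.61 and 9.67 at HOXA, -1.22 and 2.08 at HOXB, -1.94 and 1.97 at HOXC, and 0.923 and 1.78 at HOXD. H3K18ac NaPr replicates set every one of these limits except those at HOXD, which H3K18ac NaBu replicates set. Of 300 cluster values under alternatives, 264 kept their direction and 36 did not, and the cause was not tested. Of 27 values of the HOXA to HOXB ratio, 10 moved by more than the replicate SD.

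Counts of members marked in both libraries of a single group moved most with equal numbers of regions, a setting that leaves fewer regions by construction. They became 1 only in H3K18ac (3 in the report) against H3K18pr, 2 only in H4K12pr (11), 1 only in H3K18bu (0), 2 only in H3K18ac NaBu (10) and 2 only in H4K12ac NaBu (4). Against untreated cells they became 0 only in H3K18ac NaPr (1) and 1 only in untreated H3K18ac (0), 2 only in H4K12ac NaPr (0) and 6 only in untreated H4K12ac (11), and, for NaBu, 1 only in H4K12ac NaBu (0) and 4 only in untreated H4K12ac (15). Without regions over input peaks they were 1 only in H3K18pr (0), 1 only in H3K18ac NaPr (3), 2 only in H3K18ac NaPr against untreated (1) and 1 only in H3K18ac NaBu (0). With starts at the 5′ end of the gene they were 1 only in H3K18pr (0) and 0 only in H3K18ac NaPr against untreated (1). With q under 0.05 they were 0 only in H4K12ac NaBu (4) and 0 only in H3K18ac NaPr (1), with 500 bp windows 1 only in H4K12ac NaBu (4) and 3 only in untreated H3K18ac (5), and with 2 kb windows 1 only in H3K18ac NaBu (0). Leaving out 1 library gave 0 to 1 only in H3K18pr NaPr against H3K18ac NaPr, 3 to 7 only in H3K18ac NaPr against H3K18pr NaPr, 12 to 15 only in H4K12pr NaPr against H4K12ac NaPr, 0 to 1 only in H4K12ac NaPr against H4K12pr NaPr, 10 to 20 only in H3K18ac NaBu against H3K18bu NaBu, 0 to 1 only in H4K12bu NaBu against H4K12ac NaBu, 4 to 9 only in H4K12ac NaBu against H4K12bu NaBu, 1 to 2 only in H3K18ac NaPr against H3K18ac untreated, 0 to 4 only in H3K18ac untreated against H3K18ac NaPr, 0 to 1 only in H4K12ac NaPr against H4K12ac untreated, 12 to 15 only in H4K12ac untreated against H4K12ac NaPr, 0 to 2 only in H3K18ac NaBu against H3K18ac untreated, 5 to 13 only in H3K18ac untreated against H3K18ac NaBu and 15 to 22 only in H4K12ac untreated against H4K12ac NaBu. The counts that moved by over 1.5 times were 7 and 6 only in H3K18ac NaPr without H3K18pr replicate 1 and 2, 20 only in H3K18ac NaBu without its replicate 2, 9 only in H4K12ac NaBu without its replicate 2, 13 only in untreated H3K18ac without H3K18ac NaBu replicate 1, 4 only in untreated H3K18ac without H3K18ac NaPr replicate 1, and counts of 0 or 1 that became 1 or 2.

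Members called for H3K18 minus H4K12 numbered 6 in the report, 0 with equal numbers of regions, 1 without regions over input peaks, 2 with 2 kb windows, and 0 to 10 without 1 library. With the replicate number as a block the count was 0. The labels tie the replicate numbers to no shared batch, and correlations of same-numbered deviations ran from -0.00307 to 0.309 in 8 group pairs (0.309, 0.175, 0.142 and 0.118 in the highest 4), so that a pairing could not be settled from 2 replicates. The NaBu lists had a caller background near 4.3 fragments per kb, which is not their read depth. At nearly the same background, H3K18ac NaBu replicate 1 had regions at 6 HOXC and 3 HOXD starts and H4K12ac NaBu replicate 2 at 0 and 0. An absent region there does not show that the mark was absent, and an effect of read depth was not tested.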

Other observations

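Paralogues, HOX genes of the same number in different clusters, were marked to different extents. The genes of number 9 (HOXA9, HOXB9, HOXC9, HOXD9) had a start region in 19, 16, 13 and 10 of 20 libraries, a mean of 14.5. The genes of number 4 (HOXA4, HOXB4, HOXC4, HOXD4) had 14, 18, 6 and 2, a mean of 10. The genes of number 13 (HOXA13, HOXB13, HOXC13, HOXD13) had 10, 12, 8 and 7. In each of these 3 groups the HOXD gene had the fewest. The genes of number 1 went the other way, with 12 for HOXD1 and 5 for HOXB1. The smallest means were 2.5 for HOXC12 and HOXD12 and 7.5 for HOXA2 and HOXB2. These counts share the same libraries and are given without a test.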
